A study of Mus musculus with 6 samples.

Results

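The mouse Hox genes were examined as a family: all genes whose symbol is Hoxa, Hoxb, Hoxc or Hoxd followed by a number, without antisense or opposite-strand entries. The rule found 39 of the 22942 genes in the tables, through 41 RefSeq transcripts. HoxA held 11 of them, HoxB 10, HoxC 9 and HoxD 9. The rule uses gene names and no measured value, and the family was taken up with earlier results of these data known.

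Hox genes encode transcription factors that bind DNA through a homeodomain and give cells a position along the body axis. Low numbers act toward the head and high numbers toward the tail and the ends of the limbs, and the genes of a cluster lie on the chromosome in the order of their numbers. Hox proteins bind DNA together with Pbx and Meis proteins, Polycomb proteins hold the clusters silent, and Trithorax proteins keep active members on. Fat depots of adult animals keep different sets of active Hox genes.

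RNA was sequenced from C3H-10T1/2 cells, a clonal mouse mesenchymal line of embryonic origin, so every library comes from the same clone. The control group had 3 cultures given the solvent DMSO, and the treated group had 3 cultures given 611 (Cpd A), an LSD1 inhibitor, at 4 uM. All cultures went through 6 days of brown adipocyte differentiation. They received isobutylmethylxanthine, dexamethasone, indomethacin, rosiglitazone, T3, insulin and serum for the first 72 h, and then T3, rosiglitazone, insulin and serum. Per the labels, treatment began when the cells were seeded in 1 account and 12 h later in the other, and induction followed 48 h after it. The question of the series was which genes LSD1, a histone demethylase encoded by Kdm1a, controls during brown adipocyte formation.

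Library totals lay between 3.89e+07 and 4.12e+07 by recovery from the low values, so the libraries were of like depth. The fat cell label was borne out by Fabp4 at 21050 and 10950 RPKM (reads scaled to transcript length and library total) with DMSO and 611, while the brown fat marker Ucp1 was listed at 0 in all 6 libraries. Of the 8 brown fat markers 7 were tested, and 5 were lower and 1 higher, Cidea among the lower at 61.7 and 9.42 RPKM. Their sums went from between 224.2 and 268.5 RPKM with DMSO to between 84.2 and 102.7 with 611. Of 6 markers of blood cells 5 were measured, at most at 0.0155 RPKM, and Cd68 found no match. Those of muscle cells were at most 0.0470 RPKM. The endothelial markers Cdh5, Kdr, Tie1 and Cldn5 were listed at 0. Tek, of the same list, was higher (0.0852 and 0.254 RPKM, limma Benjamini-Hochberg adjusted p = 0.00747), and the 6 endothelial markers summed to between 0.0875 and 0.232 RPKM with DMSO and between 0.279 and 0.323 with 611. Of 6 cartilage and bone markers 3 were tested and 3 were higher. The 6 summed to between 12.2 and 12.8 RPKM with DMSO and between 28.7 and 30.5 with 611. Of 6 nerve cell markers 2 were tested and 2 were higher, with sums from 2.70 to 2.91 and from 9.01 to 10.0. Map2 made up most of the nerve sums, at 2.64 RPKM with DMSO and 8.59 with 611. The 4 nerve markers not tested were at most 0.0347 RPKM. Of 8 fat cell markers 8 were lower with 611, summing to between 24840 and 26250 RPKM with DMSO and between 12870 and 14230 with 611. Of 8 mesenchymal progenitor markers 7 were higher, summing to between 596.7 and 649.2 RPKM and between 1222 and 1363. Over all 13829 genes tested in the series 41.6% were higher and 17.7% lower. The part of these cell markers in the Hox results was not tested. In a culture measured as a whole, fewer cells of a type and less RNA per cell cannot be told apart.

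Nearly all of the summed Hox level came from a single cluster. A mean of at least 1 RPKM over the 6 libraries was reached by 8 genes, and all 8 belong to HoxA. No gene of HoxB, HoxC or HoxD reached that level. HoxA summed to 32.1 ± 1.07 RPKM with DMSO and 38.5 ± 1.79 with 611 (mean ± SD, n = 3 each). It made up at least 98.9% of the summed Hox level in each DMSO library and at least 97.6% in each 611 library.

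HoxD was listed at 0 for all 9 genes in all 6 libraries. In HoxB the same held for 7 of 10 genes and in HoxC for 3 of 9. Within HoxA the genes at 0 were Hoxa11 and Hoxa13, which pattern the limb beyond the elbow and the digits. In total 21 of 39 Hox genes were listed at 0 throughout, against 22.7% of all 22942 genes. For these genes 3 reads, the limit that a count of 0 allows, correspond to levels from 0.0245 to 0.0695 RPKM (counting error only). A value of 0 thus does not exclude levels below these.

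A further 8 genes of HoxB and HoxC, among them Hoxb3, Hoxb4, Hoxb8 and Hoxc9, had a value above 0 in 1 to 3 libraries. The highest was 0.0855 RPKM for Hoxc9 in 611 replicate 1, about 9 reads. These genes were too low to test. In the map of mean levels no gene outside HoxA reached 1 RPKM in either group.

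**Figure D1:**
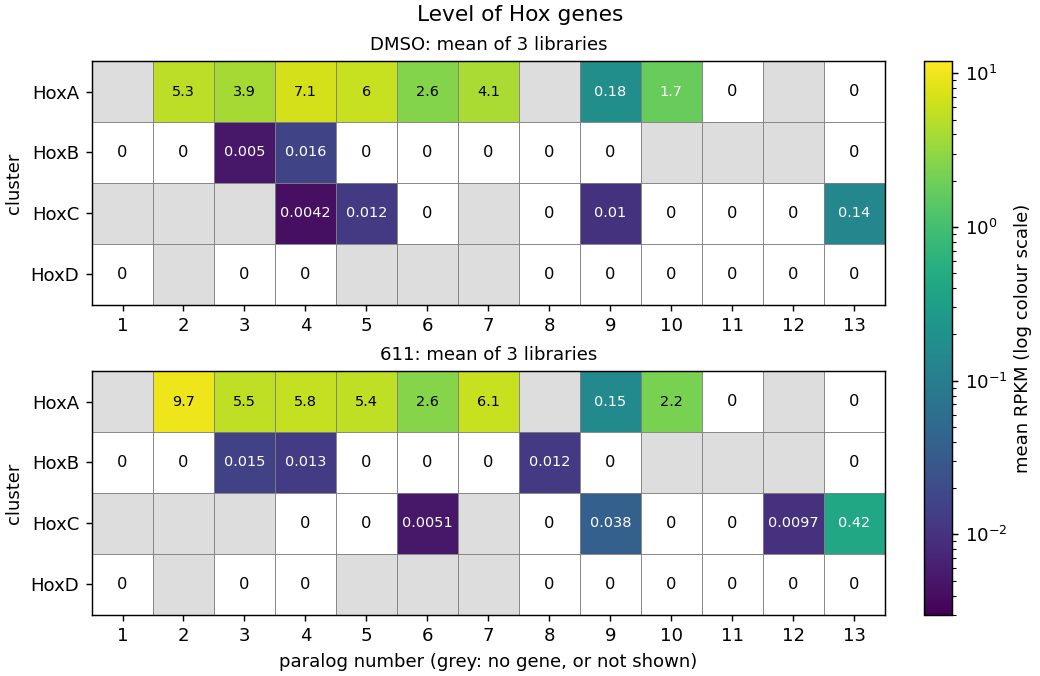
Mean RPKM of Hox genes over 3 DMSO libraries (top) and 3 libraries with 611 (bottom), by cluster (rows) and paralog number (columns), on a log colour scale with the value printed. Values of 1 RPKM or more stand in the HoxA row, and the HoxD row is at 0 throughout.

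Promoters were searched for the sites of Hox proteins and their partners in members with and without RNA. RefSeq promoters of build GRCm38.p6 were at hand for 22 of the 39 genes, as 24 windows of 300 bases (250 before the start and 50 after it). Hoxa4 was not among these genes. The stretches below are the 250 bases before the start of Hoxa2, its neighbour Hoxa3, Hoxb1 and Hoxb8. Hoxa2 had the largest rise of the Hox genes that passed the main test. Hoxb1, listed at 0, and Hoxb8, near 0, also held a match. Capitals mark matches to TGATNNAT, the site of a Hox protein paired with Pbx, or to TGACAG, the Meis site, on either strand.
Hoxa2: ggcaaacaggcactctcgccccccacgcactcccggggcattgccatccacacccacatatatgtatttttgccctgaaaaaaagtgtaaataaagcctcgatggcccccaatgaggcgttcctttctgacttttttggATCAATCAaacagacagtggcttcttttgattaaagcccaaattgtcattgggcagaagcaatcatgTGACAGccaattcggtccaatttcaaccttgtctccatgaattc
Hoxa3: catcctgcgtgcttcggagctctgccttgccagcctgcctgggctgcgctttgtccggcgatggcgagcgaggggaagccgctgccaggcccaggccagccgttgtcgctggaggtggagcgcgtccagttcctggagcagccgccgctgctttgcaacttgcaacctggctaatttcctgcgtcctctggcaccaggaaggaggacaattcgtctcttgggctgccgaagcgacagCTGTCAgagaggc
Hoxb1: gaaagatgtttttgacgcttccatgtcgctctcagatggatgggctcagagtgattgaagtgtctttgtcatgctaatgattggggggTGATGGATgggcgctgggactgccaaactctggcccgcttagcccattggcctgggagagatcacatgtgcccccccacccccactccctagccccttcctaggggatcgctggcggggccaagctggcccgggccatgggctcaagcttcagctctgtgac
Hoxb8: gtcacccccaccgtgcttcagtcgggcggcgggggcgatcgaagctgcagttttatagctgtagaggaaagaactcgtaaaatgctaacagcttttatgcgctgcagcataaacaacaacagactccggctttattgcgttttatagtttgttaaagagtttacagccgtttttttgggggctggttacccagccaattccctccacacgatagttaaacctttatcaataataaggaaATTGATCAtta

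The Hoxa2 window held a match to TGATNNAT and to TGACAG, which no other of the 24 Hox windows did. It held none to the other motifs searched, TAATTA and AGGTCA, and 1 of the Hoxd11 windows held TGATNNAT and TAATTA. The share of all promoters with both TGATNNAT and TGACAG was not computed. TGATNNAT was found in 4 of the 24 Hox windows (Hoxa2, Hoxb1, Hoxb8 and 1 of the Hoxd11 windows), or 16.7%, against 8.85% of 32851 promoters of all genes. TGACAG was found in 2 Hox windows, those of Hoxa2 and Hoxa3, or 8.33% against 19.2%. The homeodomain core TAATTA was found in 2 Hox windows, 8.33% against 5.29%, and the nuclear receptor half-site AGGTCA in 7, 29.2% against 16.3%. The motifs were searched on both strands. The windows of 6 HoxA genes at 1 RPKM or more (7 windows) and those of 12 genes listed at 0 (13 windows) each held a median of 20 CG pairs, against 7 for all promoters. A match describes letters and says nothing of what binds there.

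Within HoxA the genes moved in different directions. The test was limma on log2(RPKM + 1) over all 13829 genes, which called 41.6% higher and 17.7% lower with 611 (Benjamini-Hochberg adjusted p below 0.05). Of the 39 Hox genes 10 passed the filter on low values (0.1 RPKM in at least 3 libraries), 9 from HoxA and Hoxc13. Among them 4 were higher, Hoxa2, Hoxa3, Hoxa7 and Hoxa10, and 2 were lower, among them Hoxa4. These shares are near those of all genes, so the number of calls is no result about the family. Scaling by median of ratios moves the median difference of all genes by 0.11, to 0.00. On that scale the Hox calls were 3 higher and 3 lower, against a background of 28.5% and 28.7%. With the replicate number as a block they were 5 and 2, against 44.6% and 19.5%. The libraries of the groups did not overlap for the 6 genes called without scaling, and over all genes tested 45.8% were higher and 20.4% lower without overlap.

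**Figure D2:**
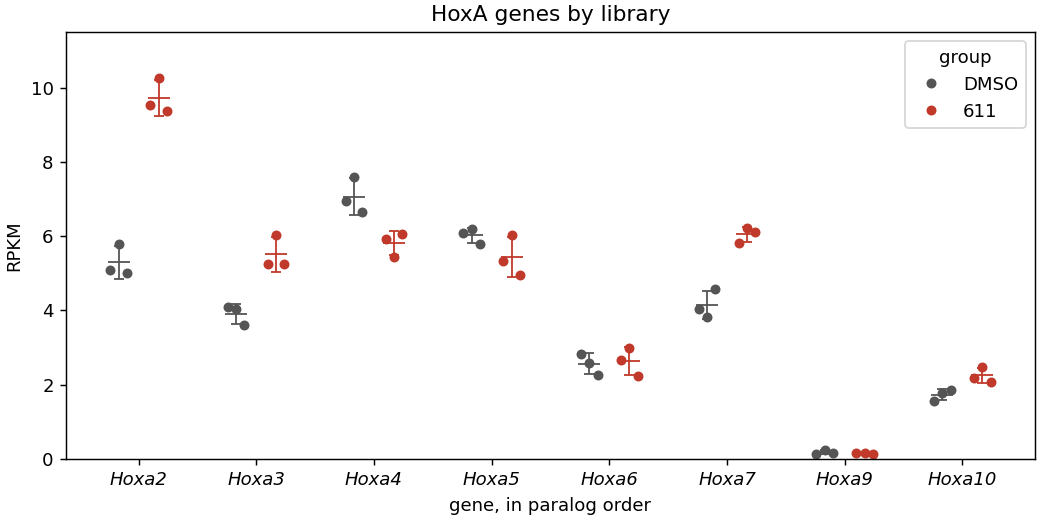
RPKM of 8 HoxA genes in each library (points), with the mean and SD of 3 libraries per group. The 611 libraries lie above all DMSO libraries for Hoxa2, Hoxa3, Hoxa7 and Hoxa10 and below them for Hoxa4.

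Hoxa2, which patterns the skeleton of the second pharyngeal arch, rose most among the Hox genes that passed the main test. It was at 5.084, 5.794 and 5.001 RPKM with DMSO and at 9.53, 10.3 and 9.37 with 611. All libraries with 611 lay far above the control libraries. The rise was 1.84-fold (log2 difference 0.77, SE 0.064, limma Benjamini-Hochberg adjusted p = 1.4e-05), and over every alternative the adjusted p stayed at or below 1.7e-04. By replicate number the folds were 1.88, 1.77 and 1.87, so the 3 pairs of cultures gave nearly the same size.

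Hoxa3, which is needed for the thymus and parathyroid, was at 4.08, 4.03 and 3.60 RPKM with DMSO. It was at 5.24, 6.04 and 5.24 with 611, all above the control values. The rise was 1.41-fold (log2 difference 0.41, SE 0.071, limma Benjamini-Hochberg adjusted p = 0.00106). Hoxa4, which acts in the neck vertebrae, had the highest RPKM of the Hox genes in the control cells, at 6.94, 7.61 and 6.65. With 611 it was at 5.93, 5.45 and 6.07, each below the lowest control. The fall was 1.22-fold (log2 difference -0.24, SE 0.064, limma Benjamini-Hochberg adjusted p = 0.00986), and it passed the test in every alternative, with adjusted p-values up to 0.0360.

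The middle numbers of HoxA moved less uniformly. Hoxa5, a gene of lung and upper trunk development, was at 6.08, 6.20 and 5.80 RPKM with DMSO and at 5.33, 6.03 and 4.95 with 611. The groups overlapped and the test was not passed (log2 difference -0.13, SE 0.069, limma Benjamini-Hochberg adjusted p = 0.139). After median-of-ratios scaling Hoxa5 was called lower (-0.26, limma adjusted p = 0.0110), as it was without 611 replicate 2 (-0.19, limma adjusted p = 0.0322). Without 611 replicate 3 the difference was -0.07 (limma adjusted p = 0.392). Hoxa6, which patterns the chest region, was at 2.84, 2.59 and 2.26 RPKM with DMSO and at 2.66, 2.99 and 2.24 with 611. Its libraries overlapped (log2 difference 0.02, limma Benjamini-Hochberg adjusted p = 0.838), and after scaling the difference was -0.08.

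Hoxa7, another gene of the trunk vertebrae, was at 4.05, 3.82 and 4.57 RPKM with DMSO. With 611 it was at 5.83, 6.22 and 6.12, well clear of the control values. The rise was 1.46-fold (log2 difference 0.46, SE 0.066, limma Benjamini-Hochberg adjusted p = 3.8e-04). Hoxa7 thus rose while its neighbours on the low-numbered side, Hoxa4 to Hoxa6, fell or did not pass the test.

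Among the high numbers of HoxA, Hoxa10 and Hoxa9 had RNA. Hoxa10, which acts in the lumbar spine and the uterus, was at 1.56, 1.76 and 1.85 RPKM with DMSO and at 2.18, 2.48 and 2.08 with 611. The groups did not overlap, and the rise was 1.31-fold (log2 difference 0.25, SE 0.072, limma Benjamini-Hochberg adjusted p = 0.0141). The call ended after median-of-ratios scaling (0.15, limma adjusted p = 0.0914), without DMSO replicate 1 (0.21, limma adjusted p = 0.0525) and without 611 replicate 2 (0.20, limma adjusted p = 0.0507). The other Hoxa10 transcript in the tables, with a lower mean, gave a log2 difference of 0.25 as well (limma adjusted p = 0.0218). Hoxa9, a regulator of blood stem cells, stayed low at 0.178 ± 0.0605 and 0.154 ± 0.0122 RPKM with overlapping libraries (limma adjusted p = 0.697), although it lies between Hoxa7 and Hoxa10.

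**Figure D3:**
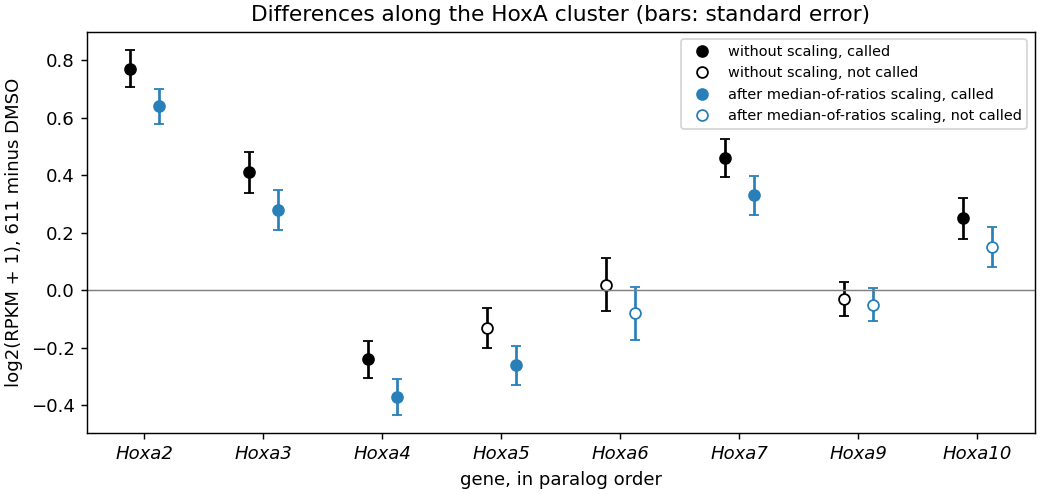
Difference between 611 and DMSO on the log2(RPKM + 1) scale for 8 HoxA genes, with the standard error, without scaling (black) and after median-of-ratios scaling (blue). Filled points passed the test. Hoxa2, Hoxa3 and Hoxa7 lie above 0 and Hoxa4 below 0 under both.

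The difference in response between HoxA genes can be read within each library, where scaling plays no part. The ratio of Hoxa2 to Hoxa4 RPKM was 0.732, 0.761 and 0.752 in DMSO replicates 1, 2 and 3 and 1.61, 1.88 and 1.54 with 611. It was 2.24 times as high with 611, and the groups were far apart. The ratio of Hoxa7 to Hoxa4 went from 0.591 ± 0.0926 to 1.04 ± 0.0855, and that of Hoxa3 to Hoxa4 from 0.553 ± 0.0308 to 0.952 ± 0.136. The ratio of Hoxa10 to Hoxa5 went from 0.286 ± 0.0308 to 0.414 ± 0.00612. In 6 of 6 ratios computed, the 3 libraries with 611 all exceeded the 3 with DMSO. Each exact two-sided permutation test gave p = 0.1, also adjusted over the 6, which is the smallest value that 3 against 3 libraries allow. The pairs were picked after their levels had been seen.

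**Figure D4:**
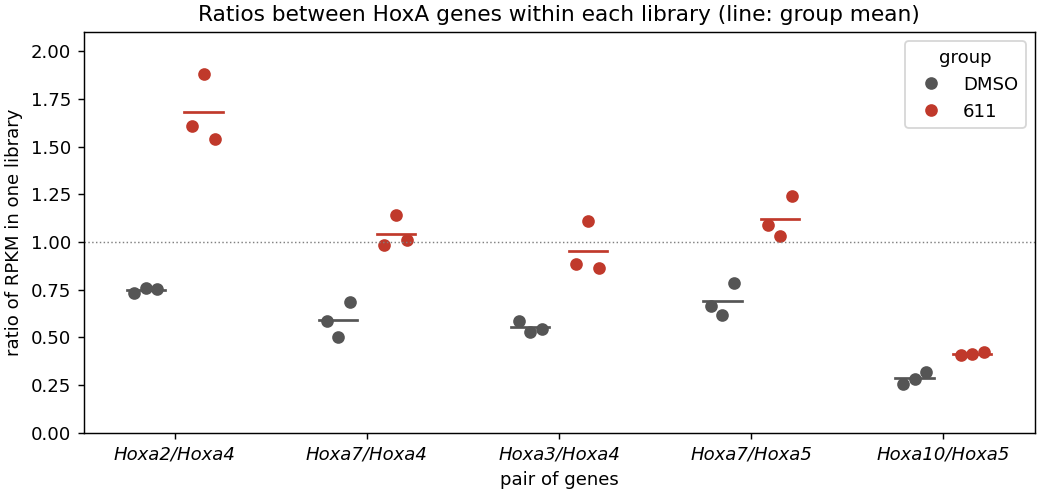
Ratio of the RPKM of the first to the RPKM of the second gene of 5 HoxA pairs within each library (points), with group means as lines. Hoxa2 over Hoxa4 lies below 1 in each DMSO library and above 1 in each library with 611.

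The order of HoxA levels changed with these shifts. Among the 8 genes plotted, the order with DMSO was Hoxa4, Hoxa5, Hoxa2, Hoxa7, Hoxa3, Hoxa6, Hoxa10 and Hoxa9. There the libraries of neighbours in the order overlapped for Hoxa7 and Hoxa3 and for no other pair. With 611 Hoxa2 came first, clear of Hoxa7. Hoxa7, Hoxa4, Hoxa3 and Hoxa5 followed with overlapping ranges between 4.95 and 6.22 RPKM, so their order is not settled. Hoxa6 and Hoxa10 overlapped next, followed by Hoxa9. RPKM is a level per length, so this order between genes depends on the transcript lengths used, which the sources used here do not give.

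Against all tested genes HoxA lay in the lower and middle range. Hoxa2 moved from the 46.6th to the 59.0th percentile of mean RPKM, while Hoxa4 moved from the 53.8th to the 44.7th.

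Along HoxA, the fall of Hoxa4 lay between the rises of Hoxa3 and Hoxa7. The median log2 difference of the 9 tested HoxA genes was 0.02, against 0.10 for all genes tested.

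Hoxc13, which acts in hair follicles and nails, was the one Hox gene outside HoxA that passed the filter on low values, with a value above 0 in all 6 libraries. It was at 0.296, 0.0621 and 0.0619 RPKM in DMSO replicates 1, 2 and 3, about 28, 6 and 6 reads. With 611 it was at 0.785, 0.180 and 0.302 RPKM, about 78, 18 and 30 reads. Replicate 1 was the highest in both groups, and the groups overlapped. Hoxc13 did not pass the test (log2 difference 0.30, SE 0.149, limma Benjamini-Hochberg adjusted p = 0.110). With the replicate number as a block it did (SE 0.074, limma adjusted p = 0.0101), since the 611 culture was 2.65, 2.89 and 4.87 times as high as the DMSO culture of the same number. The value rested on single libraries: it was 0.43 without 611 replicate 2, which passed (limma adjusted p = 0.0356), and 0.13 without 611 replicate 1, which did not (limma adjusted p = 0.334). Its neighbour Hoxc12 had a value above 0 in 611 replicate 1 alone, at 0.0291 RPKM.

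Of 4 noncoding genes measured inside HoxA, Mira and Hoxaas3 were higher with 611, and Hoxa11os and Mir196b were listed at 0. Mira, a noncoding RNA gene between Hoxa6 and Hoxa7, was at 9.42, 11.4 and 9.56 RPKM with DMSO. With 611 it was at 12.1, 15.4 and 15.1, without overlap (1.401-fold, log2 difference 0.45, limma Benjamini-Hochberg adjusted p = 0.00386, and 0.0180 after scaling). Hoxaas3 overlaps Hoxa3, Hoxa5 and Hoxa6 in the RefSeq models and was at 0.657 ± 0.182 and 1.17 ± 0.197 RPKM (1.78-fold higher, limma Benjamini-Hochberg adjusted p = 0.00736). The overlap was taken from the start and end of each gene, and exons were not compared. No source used here says whether strand was used in counting. Whether reads of Hoxaas3 are independent of these Hox genes is thus not settled, and likewise for Mira with Hoxa6 and Hoxa7. The RefSeq models of Hoxa3 also span Hoxa4, Hoxa5 and Hoxa6. Hoxd3os1, inside HoxD, was listed at 0.

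Genes beside the clusters were read beside the clusters' own levels, with the 2 nearest measured protein-coding genes on each side, a choice made after seeing the data. HoxD lies between Evx2, at 0, and Mtx2, at 50.5 ± 1.32 RPKM with DMSO. HoxC lies between Calcoco1, at 32.7 ± 0.843, and Smug1, at 6.05 ± 0.419. HoxC and HoxD, where no gene reached 1 RPKM, thus have expressed genes near them, Lnpk at 3.06 ± 0.107 beyond Evx2 included. Beside HoxB, Ttll6 and Skap1 were at or near 0, and Atp5g1 and Snx11 beyond them were at 155 ± 7.98 and 7.25 ± 0.584 RPKM.

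The neighbours of HoxA moved in both directions. Skap2, on the low-numbered side, was 1.17-fold higher (limma Benjamini-Hochberg adjusted p = 0.00803), a call that ended after median-of-ratios scaling (limma adjusted p = 0.292). Snx10 beyond it was 1.48-fold lower (limma adjusted p = 8.4e-06). On the other side Evx1, a homeobox gene of the tail end, was listed at 0, and Hibadh, an enzyme of valine breakdown, fell 1.61-fold from 133 ± 1.75 to 82.3 ± 2.67 RPKM.

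Of 10 genes in a list of Hox cofactors 7 were higher and 1 lower, beside 41.6% and 17.7% of all genes tested. The median log2 difference was 0.52 beside 0.10 for all genes. Meis2, a homeodomain partner of Hox proteins, was at 7.20, 9.09 and 7.87 RPKM with DMSO and at 14.9, 17.4 and 16.5 with 611, a rise of 2.02-fold without overlap (limma Benjamini-Hochberg adjusted p = 2.1e-05). Pbxip1, which binds Pbx proteins, rose 2.59-fold from 6.59 ± 0.495 to 17.1 ± 0.133 RPKM. Its libraries with 611 were nearly alike.

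Meis1 and Meis3 rose 2.00-fold and 1.98-fold, and Pknox1 and Pbx3 rose 1.28-fold each. Pbx4 was the member that fell, 1.41-fold from 1.20 ± 0.0813 to 0.852 ± 0.0505 RPKM. Pbx2, at 11.7 ± 0.549 and 11.4 ± 0.519, and Pknox2, at 0.190 ± 0.0436 and 0.192 ± 0.0719, did not pass the test. The summed level of the list went from 48.8 ± 3.57 to 92.0 ± 4.52 RPKM. With scaling the counts became 6 and 2, beside 28.5% and 28.7% of all genes: Pbx3 lost its call and Pbx2 was then called lower.

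Regulators that hold Hox clusters silent or active changed in both directions. Of 41 genes listed 40 were measured, and 24 were higher and 5 lower, beside 41.6% and 17.7% of all genes tested. The median log2 difference was 0.24. After median-of-ratios scaling the counts were 17 and 11, beside 28.5% and 28.7%, and the median was 0.11. Cbx6, a Polycomb chromodomain protein, rose 2.52-fold from 10.4 ± 0.832 to 26.3 ± 1.71 RPKM (limma Benjamini-Hochberg adjusted p = 1.3e-06). Psip1, which ties Trithorax complexes to chromatin, rose 1.67-fold, and Ezh2, the enzyme that methylates histone H3 in Polycomb complexes, rose 1.77-fold from 4.03 ± 0.205 to 7.11 ± 0.353.

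In the other direction Dot1l, a histone methyltransferase of transcribed genes, fell 1.36-fold from 18.2 ± 0.684 to 13.4 ± 0.258 RPKM (limma Benjamini-Hochberg adjusted p = 5.2e-05). Cbx8, another Polycomb chromodomain gene, fell 1.19-fold (limma adjusted p = 0.0267), a call lost without 611 replicate 2, 611 replicate 3, DMSO replicate 1 or DMSO replicate 2 (limma adjusted p between 0.0619 and 0.0894). Suz12 and Eed, core partners of Ezh2, were at 17.7 ± 0.864 and 16.0 ± 0.722 RPKM and at 9.17 ± 0.281 and 8.53 ± 0.651. Suz12 was called lower (limma adjusted p = 0.0429), a call lost without 611 replicate 1, 611 replicate 2, DMSO replicate 1 or DMSO replicate 3 (limma adjusted p up to 0.145). Eed was called lower only after scaling (limma adjusted p = 0.0116, against 0.200 without).

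Of 24 genes that set limb and axial position 10 were listed at 0 in all 6 libraries. Another 10 could be tested, and 6 were higher and 1 lower (median log2 difference 0.27), beside 41.6% and 17.7% of all genes tested. Cdx1, Cdx2 and Cdx4, the factors that turn on trunk Hox genes in embryos, were listed at 0, as were the limb genes Tbx4, Tbx5, Hand2 and Shh. Gdf11, a secreted factor that sets the trunk to tail transition, rose 4.05-fold from 1.89 ± 0.164 to 7.66 ± 0.929 RPKM. Rarg, a retinoic acid receptor, rose 1.92-fold from 8.26 ± 0.527 to 15.9 ± 1.53, and Gli3, an effector of Hedgehog signals, rose 2.49-fold. Zbtb16, a repressor that acts on Hox genes in the limb, fell 1.54-fold from 9.08 ± 0.249 to 5.91 ± 0.191 RPKM.

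Of 30 further factors of lateral mesoderm and fat depots 20 were tested, 16 were higher and 1 was lower (median log2 difference 0.59), beside 41.6% and 17.7% of all genes tested. Prrx2, a homeobox gene of limb and face mesenchyme, was at 13.6, 17.2 and 12.6 RPKM with DMSO and at 38.6, 44.6 and 37.8 with 611, 2.80-fold higher without overlap. Nr2f1 and Irx2, further factors of regional identity, rose 2.00-fold and 2.09-fold. Irx3 fell 1.75-fold from 3.95 ± 0.267 to 2.26 ± 0.364 RPKM, while Irx1 and Irx5, genes of the same family, rose 1.76-fold and 1.81-fold. The gene lists are compared with HoxA in the plot of log2 differences by list.

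**Figure D5:**
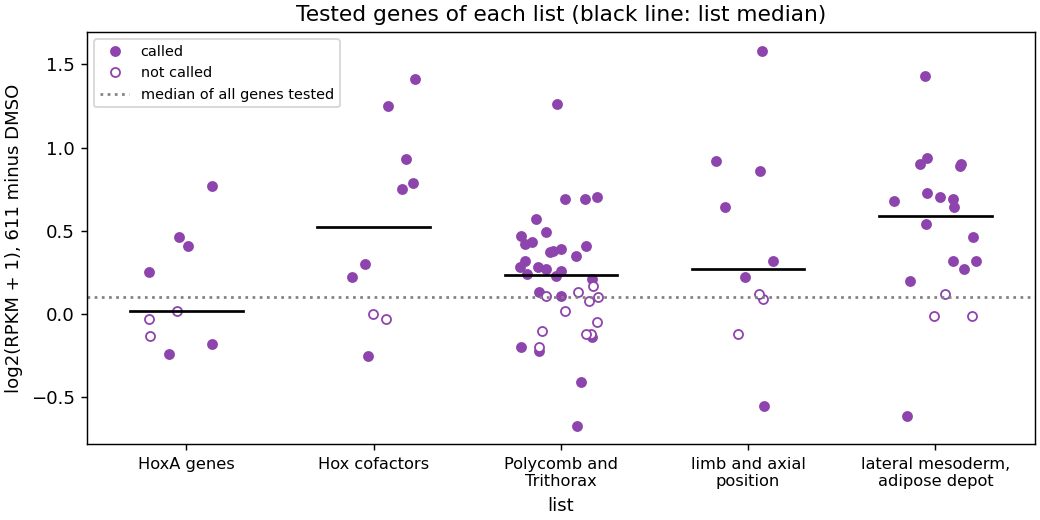
Difference between 611 and DMSO on the log2(RPKM + 1) scale for the tested genes of HoxA and of 4 lists (points, filled where the test was passed), with list medians as black lines and the median of all genes tested, 0.10, as a dotted line. The cofactor and mesoderm lists have medians of 0.52 and 0.59, and HoxA has 0.02.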

How the data were processed

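Mouse build mm9, SAMtools, TopHat and TopHat2 (2.0.12) are named, per the submitters' processing notes. For the program behind the values, its annotation and its strand setting: not given in the sources used here. The authors deposited RPKM values for 28430 RefSeq transcripts per library, in 6 libraries grouped by title. Symbols came by accession from RefSeq tables of GRCm38.p6, used for names, neighbours and promoters only (27785 matched). The transcript with the highest mean stood for its gene. The main test was limma 3.58.1 with trend on log2(RPKM + 1), over 13829 genes with 0.1 RPKM in at least 3 libraries, with group as the only term and Benjamini-Hochberg adjustment. The fit was tested on simulated data. Members and lists were chosen with earlier results of these data known.

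Each library total was found from low values, which are whole multiples of 1 read. Reads came out whole at the reference length for 23.7% of 22741 expressed transcripts, within 0.02 reads plus 2e-05 per read, so no count test was run. Reads of Hox genes use the nearest length that makes them whole. For 7 HoxA genes they lay between 63 and 711 per library. The series calls the cultures biological triplicates, and p-values measure the spread between them. Replicates differed beyond sampling noise (chi-square per transcript between 16.6 and 31.9 within groups) and were kept apart. Same-numbered libraries deviated together from their group means (correlations 0.30, 0.30 and 0.18 across genes), so folds by replicate number treat them as pairs. The main test did not use this pairing. A fit with the replicate number as a block did, as an alternative. Other alternatives were median-of-ratios scaling, a pseudocount of 0.1, no filter, a filter of 1 RPKM, the transcript with the lowest mean and leaving out each library. Named genes are every Hox gene with a mean of 1 RPKM, called Hox genes from 0.5 RPKM, and up to 3 genes per direction of each other list with 1 RPKM. Some members are counted but not reported here by name. Other genes of the lists, of marker lists and beside the clusters were named after their values were seen.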

Additional observations from a re-analysis of the deposited data

How the results depend on the processing

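Hoxa2, Hoxa3, Hoxa4 and Hoxa7 kept their direction and passed the test under each alternative run. The count of Hox genes called lower was 2 in the main fit and 1 with a filter of 1 RPKM. The same held for HoxA and for numbers 1 to 4, and each count was between 1 and 2 when single libraries were left out. Hoxa4 was called in each of these fits, and the other lower call of the main fit was kept only without DMSO replicate 1. Without 611 replicate 2 the 2 genes called lower were Hoxa4 and Hoxa5. Scaling gave 1 lower gene among numbers 5 to 8, also with the replicate block, 0 higher genes among numbers 9 to 13, 2 lower cofactors, also with the block, and 11 lower Polycomb and Trithorax genes, also with the block. The replicate block gave 1 higher HoxC gene, also with scaling, and 2 higher genes among numbers 9 to 13. With scaling it gave 2 lower genes in the mesoderm and depot list. Among Hox genes the block alone changed the call of Hoxc13 and no other, and it moved no other count of calls given in the report by over 1.5 times. The fit that joins scaling and the block was added after seeing the data. With no filter 3 Polycomb and Trithorax genes and 2 limb and axial genes were lower. Leaving out single libraries gave 0 to 1 higher HoxC genes, 0 to 1 lower genes among numbers 5 to 8, 0 to 1 higher among 9 to 13, and 3 to 5 lower Polycomb and Trithorax genes, with 3 without DMSO replicate 1. Hoxa6 turned to -0.08 with scaling, and to -0.08 with scaling and the block, and lay between -0.05 and 0.10 without single libraries. Hoxa9 lay between -0.06 and 0.01 there. Neither passed the test in any setting, and the cause of these changes was not tested. A count test was not run. The log2(RPKM + 1) scale understates changes of low genes: with a pseudocount of 0.1 Hoxc13 had a log2 difference of 1.09, which did not pass the test (SE 0.480).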
